A study of Mus musculus with 120 samples.

Results

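Cytochrome P450 genes outside the large Cyp2c, Cyp2d and Cyp4a clusters were followed in the livers of 30 mouse strains. A gene belonged to the set when its symbol begins with Cyp and a digit and is neither a Cyp2c, Cyp2d or Cyp4a gene nor one of 6 genes of sterol and bile acid synthesis (Cyp7a1, Cyp7b1, Cyp8b1, Cyp27a1, Cyp46a1 and Cyp51). The rule uses gene symbols alone, although it was set with earlier results of these data known. It gave 45 genes, read by 61 probe sets, of 18193 genes and 34945 probe sets that carry 1 gene symbol. The tested strains were MSM, which was bred from wild mice caught in Japan, and 28 consomic strains in which a chromosome of C57BL/6J (B6) was replaced by that of MSM. Some carry a whole autosome (B6-Chr1MSM, B6-Chr3MSM, B6-Chr4MSM, B6-Chr5MSM, B6-Chr7MSM, B6-Chr8MSM, B6-Chr9MSM, B6-Chr11MSM, B6-Chr14MSM, B6-Chr15MSM, B6-Chr16MSM, B6-Chr17MSM, B6-Chr18MSM and B6-Chr19MSM). Others carry the centromeric (C) or telomeric (T) part of a chromosome (B6-Chr2CMSM, B6-Chr2TMSM, B6-Chr6CMSM, B6-Chr6TMSM, B6-Chr7CMSM, B6-Chr7TMSM, B6-Chr12CMSM, B6-Chr12TMSM, B6-Chr13CMSM, B6-Chr13TMSM, B6-ChrXCMSM and B6-ChrXTMSM), the Y chromosome (B6-ChrYMSM) or the mitochondrial DNA (B6-mtMSM). Each is called below by what it received from MSM, as Chr4 for B6-Chr4MSM and mt for B6-mtMSM. The labels give no boundary between the C and T parts. B6 served as the reference, and every consomic strain shares its remaining genome. All animals were labelled as males of 10 weeks, fasted for 4 h, with 2 males per strain and 2 Affymetrix arrays per male (120 arrays, 60 males).

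Cytochromes P450 are heme enzymes that insert an oxygen atom into fatty acids, steroids, vitamins, retinoids, drugs and pollutants. In the liver they draw electrons from NADPH through P450 reductase and cytochrome b5, and many are switched on by nuclear receptors such as Nr1i2 (PXR) and Nr1i3 (CAR) or by the aryl hydrocarbon receptor Ahr. Several mouse hepatic P450 genes, Cyp2b9, Cyp2b13 and Cyp3a44 among them, are known as genes that are higher in females than in males.

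The values are deposited log2 levels, and the deviation of a probe set between arrays is compressed by an amount that differs between probe sets. A difference on this scale is therefore not a log2 fold change and its size cannot be set against that of another gene. Differences are given beside the standard deviation (SD) between the 2 males of a strain, pooled over the 30 strains for that probe set. A difference between 2 strain means then has a standard error close to 1 SD. A call means an adjusted p under 0.05 in limma's moderated test over all 19429 probe sets that exceeded the overall median (7.417) in at least 2 of the 60 males. All 8 hepatocyte markers examined, Alb and Ttr among them, lay at percentile 99.1 or above of the mean levels. Of these 8, Fgb was called lower in MSM than in B6 (-0.000762, adjusted p = 5.73e-07) and none was called higher. The 8 levels summed to 111.381 and 111.386 in MSM males and 111.359 and 111.366 in B6 males. Of all tested probe sets, 9.95% were called lower and 13.4% higher in MSM than in B6. Of 6 Kupffer cell markers, 3 were called lower in MSM. Their 6 levels summed to 52.7166 and 52.7242 in MSM males and 52.791 and 52.7916 in B6 males. Of the other cell types' markers, the erythroid gene Alas2 (-0.101, adjusted p = 1.91e-05), Lrat of stellate cells (1 of 5, adjusted p = 0.00167) and Clec4g of endothelium (adjusted p = 0.0105) were also called lower in MSM, and Lyve1 of endothelium (adjusted p = 0.00376) and Epcam of bile duct cells (adjusted p = 0.00438) were called higher. The 5 endothelial levels summed to 42.4675 and 42.4721 in MSM males and 42.4311 and 42.4329 in B6 males, and the 5 stellate levels to 43.6904 and 43.6987 in MSM males and 43.7067 and 43.709 in B6 males. Such sums run over probe sets of unequal compression. In bulk liver fewer cells of a type and less RNA per cell cannot be told apart, and the part of these differences in the P450 results was not tested.

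One animal went against its label. In the animal labelled Chr7T male 1, Xist, which is transcribed in female cells, stood at 7.88 on probe set 1427262_at, against 6.79 in Chr7T male 2 and 6.76 to 6.82 in the 59 other animals. The Y-linked Eif2s3y stood at 6.76 in the same animal (1417210_at), against 6.89 to 6.93 in the other 59, and Y-linked Kdm5d was also lowest there (6.832 against 6.837 to 6.842 on 1424903_at). The second Eif2s3y probe set and 1 other Kdm5d probe set did not separate it. These genes were examined after the P450 values had been seen. Chr5 male 2, which also stood apart in several P450 genes, had 6.80 for Xist and 6.92 for Eif2s3y, inside the range of the others. Results whose call changes without the animal labelled Chr7T male 1 are given both ways. Another animal, Chr9 male 1, was the lowest of 60 in 11 and the highest in 5 of the 61 P450 probe sets.

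Of the 45 genes, 29 were tested through 34 probe sets. Of these, 33 exceeded the filter's level in all 60 animals, and Cyp2b9 did so in 2 animals alone. The other 27 probe sets lay under the level filter. They included all probe sets of the steroid enzymes Cyp11a1, Cyp11b1 and Cyp11b2, of Cyp1a1 and Cyp1b1, of the vitamin D enzymes Cyp24a1 and Cyp27b1, and of Cyp39a1, Cyp2b13, Cyp2j11, Cyp2j13, Cyp3a16, Cyp4f18, Cyp4f39, Cyp4f41-ps and Cyp4x1. A further 3 P450 probe sets match several genes (Cyp2a4 with Cyp2a5, Cyp3a41a with Cyp3a41b, and Cyp4f16 with Cyp4f37) and were set aside.

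In MSM against B6, 7 of 34 probe sets were called lower, where 9.95% of all tested probe sets were, and 3 of 34 were called higher, where 13.4% were. The genes called lower in MSM were Cyp2j5, Cyp2j6, Cyp3a13, Cyp3a25 and Cyp2r1. Those called higher were Cyp2a12, Cyp2f2 and Cyp4v3. The median difference was 0.05 SD over the 34 P450 probe sets (17 of 34 above 0) and 0.53 SD over all tested probe sets, of which 59.9% were above 0. Their median absolute difference was 2.08 SDs, against 1.50 SDs over all. Without the animal labelled Chr7T male 1, 5 probe sets were called higher in MSM and 7 lower. The second Cyp4v3 probe set was among those called higher (adjusted p = 0.0347). When Chr5 male 2 was left out too, this probe set (adjusted p = 0.0174) and Cyp3a44 (adjusted p = 0.0365) were called higher, and Cyp2u1 (adjusted p = 0.0471) lower. Strains with all or part of the gene's own chromosome from MSM were also set against B6. Of the 34 probe sets, 5 were called lower there (background 4.37%) and 1 higher (background 2.64%). All 6 were also called in MSM in the same direction. That is 17.6% of the 34 P450 probe sets, where 5.86% of all probe sets were called both ways. Set beside the backgrounds of 4.37% and 2.64%, this means that most own-chromosome calls of all probe sets were likewise shared with MSM. Both comparisons also use the same 2 B6 males, so the shared calls are not independent. In fits of B6 with 1 consomic strain at a time, 0 of the 6 were called. Whether a lower signal of an MSM allele reflects less transcript or weaker binding to the array probes cannot be told apart.

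**Figure D1:**
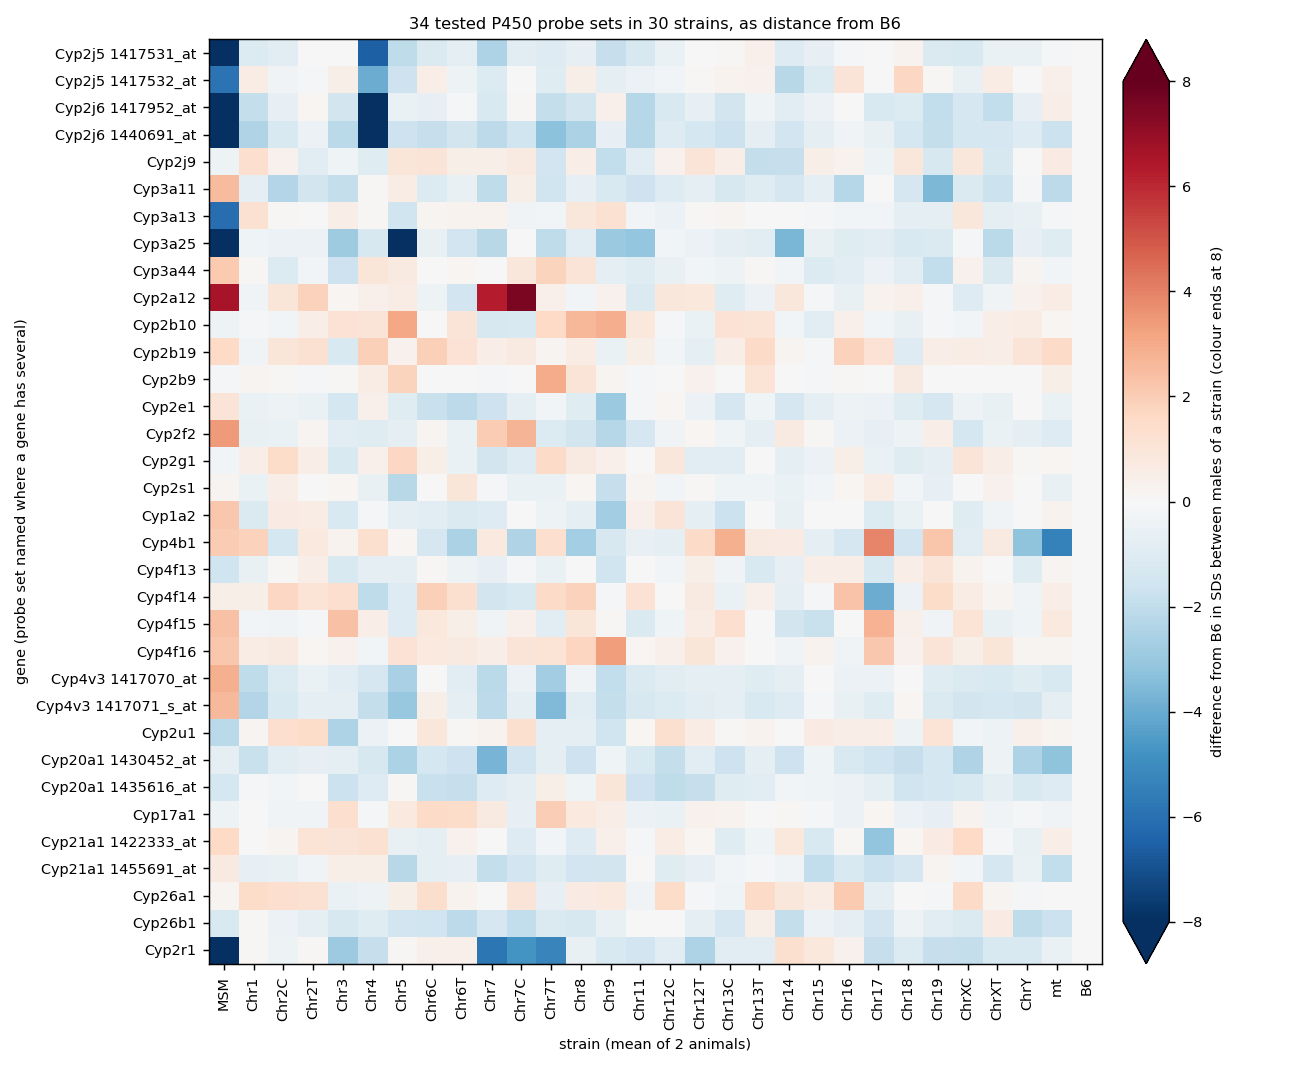
Difference of each strain from B6 for the 34 tested P450 probe sets, in SDs between males of a strain, with MSM at the left, the 28 consomic strains ordered by chromosome, and B6 at 0 on the right. Strong colours lie in MSM, in strains with all or part of the gene's own chromosome and in mt for Cyp4b1 (-5.39 SDs). The own-chromosome strains are Chr4 for Cyp2j5 and Cyp2j6, Chr5 for Cyp3a25, Chr7 and Chr7C for Cyp2a12, and Chr7, Chr7C and Chr7T for Cyp2r1.

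The Cyp2j genes of chromosome 4 encode enzymes that turn arachidonic acid into epoxides. Cyp2j5 and Cyp2j6 were both lower in MSM and in Chr4, and the third tested gene, Cyp2j9, was not called in either strain. Cyp2j5 (1417531_at) had levels of 11.05930 and 11.05966 in MSM males and 11.06040 and 11.06046 in Chr4 males, against 11.06323 and 11.06306 in B6 males. The 54 animals of the other consomic strains ran from 11.06136 to 11.06356, with a median of 11.06288. All 4 animals with an MSM chromosome 4 were thus below the 56 others. The difference was -0.00367 ± 0.00041 (SE) for MSM (-8.85 SDs, adjusted p = 4.04e-08) and -0.00271 ± 0.00041 for Chr4 (adjusted p = 0.000151), or 74.0% of that in MSM. Chr4 against MSM was not called (0.000954 ± 0.00041, adjusted p = 0.101), although both Chr4 males lay above both MSM males. After quantile normalization the Chr4 difference from B6 was -0.00162 (adjusted p = 0.219). The second Cyp2j5 probe set (1417532_at) gave the same order, with -5.91 SDs in MSM (adjusted p = 3.72e-05) and -0.00284 ± 0.00071 in Chr4 (adjusted p = 0.0639). That adjusted p was 0.0278 without the animal labelled Chr7T male 1 and Chr5 male 2. Chr5 male 2 was the lowest of the 54 on this probe set. After quantile normalization the MSM call of this probe set was lost (adjusted p = 0.0669).

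Cyp2j6 (1440691_at) showed no overlap either. MSM males had 7.54978 and 7.55046 and Chr4 males 7.54914 and 7.54896, against 7.56329 and 7.56255 in B6 males and 7.55662 to 7.56370 in the other 54 consomic animals. The difference in Chr4 amounted to 108% of that in MSM on this probe set (adjusted p = 4.13e-07 in Chr4 and 5.23e-08 in MSM) and to 102% on 1417952_at (adjusted p = 5.94e-07 in Chr4 and 2.55e-08 in MSM). Chr4 was the lowest of the 30 strains on both. The adjusted p of Chr4 against MSM was 0.659 and 0.928. Over the 30 strain means the Cyp2j6 probe sets correlated at 0.956 and the Cyp2j5 probe sets at 0.909. In Cyp2j9 (1424677_at) the levels were 7.75696 and 7.75710 in MSM, 7.75695 and 7.75694 in Chr4 and 7.75711 and 7.75708 in B6, and Chr4 differed from B6 by -0.000149 ± 0.000152 (adjusted p = 0.769). The neighbours Cyp2j11 and Cyp2j13 were under the filter.

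The 250 bases before the RefSeq start of both genes are shown because the genes moved together with chromosome 4. They are the reference (B6) sequence, and the MSM sequence was not used here. RefSeq promoters were found for 35 of the 45 genes. Capitals mark the TATA box letters TATAAA on either strand, which 12.4% of 32851 mouse promoters hold in these 250 bases. Of the 35 P450 genes, 9 hold these letters in at least 1 promoter, a count by gene and not by promoter. In Cyp2j5 they lie on the opposite strand, 128 bases before the start. Cyp2j6 has none, and the longest run shared by both genes is 9 bases.
Cyp2j5 (GRCm38.p6, chr4:96664120-96664369, minus strand): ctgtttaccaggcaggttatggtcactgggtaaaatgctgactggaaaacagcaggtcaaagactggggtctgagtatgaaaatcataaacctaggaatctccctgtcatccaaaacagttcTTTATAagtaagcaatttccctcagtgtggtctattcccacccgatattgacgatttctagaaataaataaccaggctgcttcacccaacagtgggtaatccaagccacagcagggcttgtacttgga
Cyp2j6 (GRCm38.p6, chr4:96553652-96553901, minus strand): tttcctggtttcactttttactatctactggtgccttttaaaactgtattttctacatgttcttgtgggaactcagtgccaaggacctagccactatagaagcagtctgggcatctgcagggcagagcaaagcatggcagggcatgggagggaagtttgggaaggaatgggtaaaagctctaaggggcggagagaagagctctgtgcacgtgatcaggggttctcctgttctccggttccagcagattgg

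The Cyp3a genes of chromosome 5 encode oxidases of steroids and of a large share of drugs. Of the 4 tested, Cyp3a25 and Cyp3a13 were called lower in MSM, and Cyp3a11 and Cyp3a44 were not called. Cyp3a25 (1424973_at) had 11.69563 and 11.69729 in MSM males and 11.69498 and 11.70081 in Chr5 males, against 11.71932 and 11.72062 in B6 males and 11.71038 to 11.72060 in the 54 other consomic animals. The animals with an MSM chromosome 5 again lay below every other one. The difference was -0.0235 ± 0.00196 in MSM (-11.9 SDs, adjusted p = 8.18e-11) and -0.0221 ± 0.00196 in Chr5 (adjusted p = 6.02e-09), 93.9% of that in MSM. Cyp3a25 also had the largest F statistic of the 34 probe sets over the 30 strains (15.9).

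Cyp3a13 (1419523_at) split the 2 Chr5 males. It had 9.569 and 9.577 in MSM males, 9.581 in Chr5 male 1 and 9.621 in Chr5 male 2, against 9.609 and 9.612 in B6 males and 9.603 to 9.623 in the other 54. Chr5 male 1 stood beside MSM and Chr5 male 2 stood above both B6 males, a gap of 6.47 SDs, where the median gap between males of a strain was 0.56 SD. MSM was lower than B6 (-6.07 SDs, -0.0373 ± 0.0061, adjusted p = 2.55e-05). Chr5 was not called (-0.00976 ± 0.0061, adjusted p = 0.459), but was without Chr5 male 2 (-0.0297, adjusted p = 7.64e-05). The difference of Chr5 from MSM (0.0276, adjusted p = 0.000952) was 0.00766 without that male (adjusted p = 0.193). In Cyp3a25, the same animal had 11.70081 and lay with MSM.

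Cyp3a11, the most studied mouse target of PXR, was highest in MSM. The MSM males were 2.12 and 2.91 SDs above the B6 mean, higher than every other animal, and Chr5 males were 0.46 and 0.70 SD above it. MSM against B6 gave an adjusted p of 0.0692. Cyp3a11 varied over the 30 strains (adjusted p = 0.0471 by the moderated F test, 0.055 without the animal labelled Chr7T male 1). Chr7 male 1 was the lowest of 60 (-5.07 SDs from the B6 mean) while Chr7 male 2 stood 1.05 SDs above it.

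**Figure D2:**
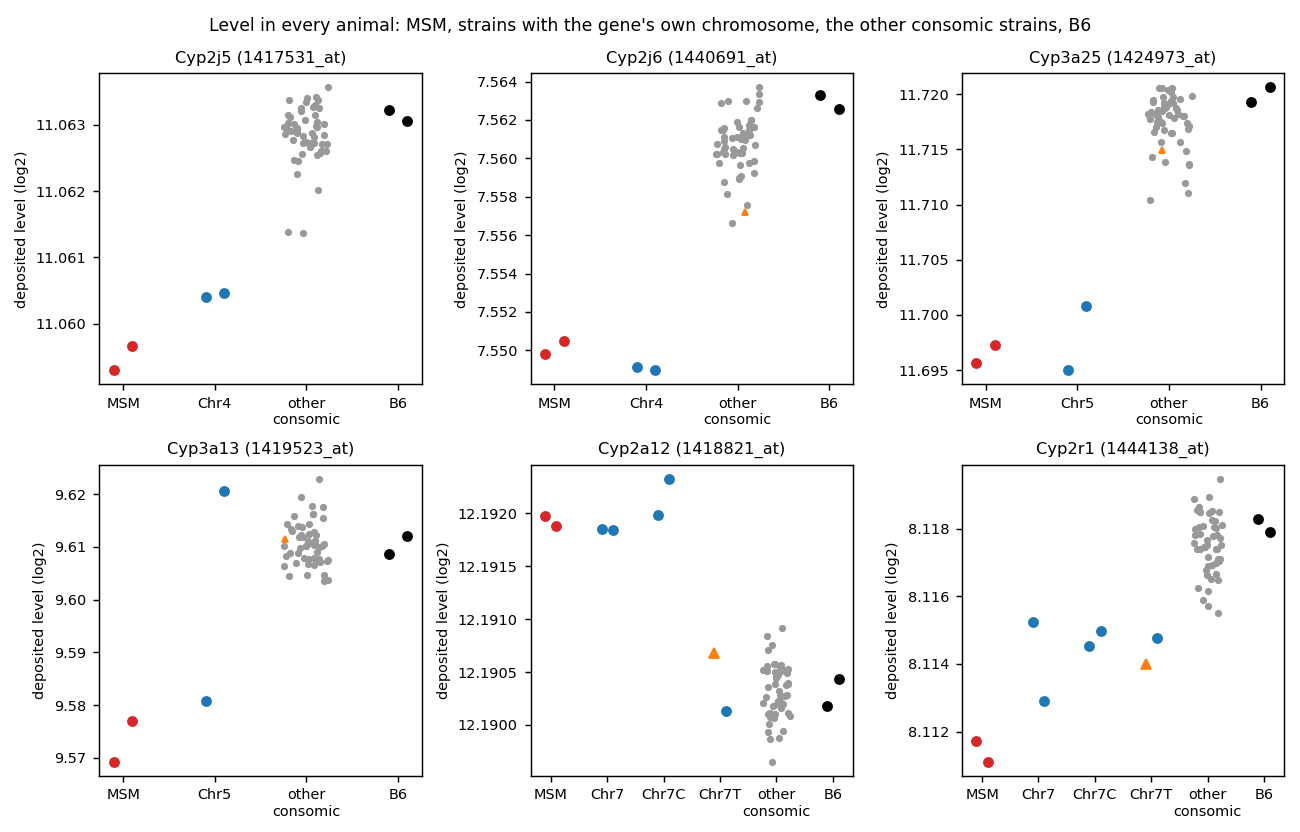
Deposited log2 level of 6 genes in each animal, with MSM in red and B6 in black. Strains with all or part of the gene's own chromosome from MSM are blue and other consomic animals grey. The animal labelled Chr7T male 1 is an orange triangle. Cyp2j5, Cyp2j6 and Cyp3a25 separate the carriers from all other animals, the Chr5 males split in Cyp3a13 (9.581 and 9.621), Cyp2a12 is high in Chr7 and Chr7C but not in Chr7T, and Cyp2r1 is low in all 3 chromosome 7 strains.

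On chromosome 7, 9 family 2 genes were tested: Cyp2a12, Cyp2b9, Cyp2b10, Cyp2b19, Cyp2f2, Cyp2g1 and Cyp2s1, which lie together near the centromere, Cyp2r1 farther along and Cyp2e1 near the telomere. Cyp2a12, which hydroxylates testosterone and bile acids, was called in MSM and in its own chromosome. Its levels (1418821_at) were 12.19197 and 12.19188 in MSM, 12.19185 and 12.19184 in Chr7 and 12.19199 and 12.19233 in Chr7C, against 12.19018 and 12.19043 in B6 and 12.18965 to 12.19092 in the 50 consomic animals with a B6 chromosome 7. The 6 animals were above all of these. In the Chr7T strain, the animal labelled male 1 had 12.19068 and male 2 had 12.19014, inside that range. The difference was 0.00162 ± 0.00024 in MSM (6.62 SDs, adjusted p = 6.98e-06), 0.00154 in Chr7 (adjusted p = 0.000403) and 0.00185 in Chr7C (adjusted p = 4.08e-05). After quantile normalization none of these was called: the MSM difference was 0, and Chr7 and Chr7C had adjusted p of 0.61 and 0.677. Quantile normalization replaces a value by the shared value of its rank, and 4 of the 34 P450 probe sets had equal MSM and B6 levels after it. A difference of 0 there, here and in Cyp2f2 below, is a tie of ranks and does not measure the deposited levels. Chr7C exceeded Chr7T by 0.00175 ± 0.00024 (adjusted p = 8.28e-05), and by 0.00202 with male 2 alone (adjusted p = 0.000197). It was the 1 call in that comparison among 9 P450 probe sets of chromosome 7, where 3.57% of 1373 probe sets were called.

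Cyp2f2, which activates naphthalene in airway club cells and is also made in hepatocytes, followed the same animals with smaller distances. Above the B6 mean lay the MSM males by 3.65 and 3.14 SDs, the Chr7C males by 2.70 and 2.80 SDs and the Chr7 males by 2.52 and 1.54 SDs (1448792_a_at). These 6 were higher than the 50 consomic animals without any MSM chromosome 7 and than both B6 males. The call in MSM (adjusted p = 0.012) was lost without either B6 male or without MSM male 1 (adjusted p of 0.0648, 0.064 and 0.086), and the difference was 0 after quantile normalization (adjusted p = 1). Neither Chr7 (adjusted p = 0.281) nor Chr7C (adjusted p = 0.434) was called. No lung club cell marker passed the level filter. The tested chromosome 7 probe sets were put in genome order and cut into 10 equal bins. The bin that holds Cyp2a12, Cyp2f2 and the Cyp2b genes had 7 calls in Chr7C, Cyp2a12 itself counted, and 0 in Chr7T among its 137 probe sets. Cyp2e1, in the last bin (0 calls in Chr7C and 12 in Chr7T), had an adjusted p of 0.965 in Chr7T against B6.

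The Cyp2b genes encode phenobarbital-inducible or female-enriched oxidases, and in Cyp2b9 and Cyp2b13 individual animals stood far above the rest. In Cyp2b9 (1419590_at), the animal labelled Chr7T male 1 had 7.95 and Chr5 male 2 had 7.54, against 7.27 in the next, Chr13T male 1, and a median of 6.94 over the 60. Chr7T male 2 had 6.90, Chr5 male 1 had 6.92, and the B6 males had 6.94 and 6.93. In Cyp2b13 (1449479_at, under the filter), the animal labelled Chr7T male 1 had 7.69 and the 59 others at most 7.33. Cyp2b9 passed the level filter only through these 2 animals, so its values are a description and no test of it between strains is given. Its SD between males was 0.167, and 0.0997 without the animal labelled Chr7T male 1. The mean was 6.912 in MSM and 6.934 in B6.

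The same 2 animals were extreme in other genes. Cyp17a1 (1417017_at) was 8.08 in the animal labelled Chr7T male 1, the highest of 60, and 7.92 in Chr5 male 2, with a median of 7.79. Cyp39a1 (1418780_at) was 7.16 in Chr5 male 2, the highest of 60, and 7.13 in the animal labelled Chr7T male 1, below Chr8 male 1 and Chr7 male 2, with a median of 7.08. Cyp3a44 (1426064_at) and Cyp3a16 (1421741_at) were highest in the animal labelled Chr7T male 1. Cyp4v3 was lowest in these 2 animals on both of its probe sets. The highest values of Cyp2b9, Cyp2b13 and Cyp3a44 thus fell on the animal with the highest Xist. The second highest of Cyp2b9 fell on Chr5 male 2, whose Xist and Eif2s3y lay with the others. The part of the sex of an animal in these values was not tested.

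**Figure D3:**
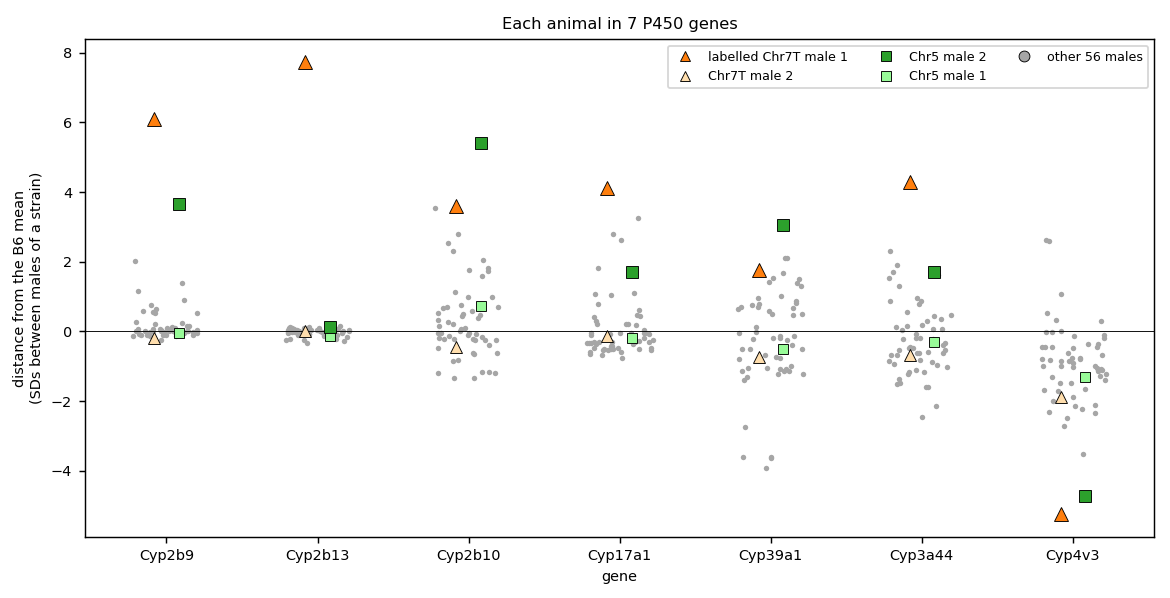
Distance of each of the 60 animals from the B6 mean in 7 P450 genes, in SDs between males of a strain. The animal labelled Chr7T male 1 (orange triangle) and Chr5 male 2 (green square) are the highest in Cyp2b9 and Cyp2b10 and the lowest in Cyp4v3, while their strain mates (pale symbols) lie with the other 56 males.

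Cyp2b10, the classical target of CAR, varied over the strains (1451787_at, F test adjusted p = 0.0489, and 0.0124 without the animal labelled Chr7T male 1). The highest animals were Chr5 male 2 (7.658), the animal labelled Chr7T male 1 (7.631), Chr9 male 1 (7.630) and the Chr8 males (7.619 and 7.615), and the lowest were Chr7C male 1 (7.555), Chr7 male 1 (7.555), Chr15 male 2 (7.557) and Chr7 male 2 (7.557). MSM males had 7.566 and 7.573 and B6 males 7.574 and 7.577. The 3 Cyp2b10 probe sets followed each other, with correlations of 0.992 to 0.995 over the 30 strain means, although 2 of them lay under the filter. No strain was called against B6 with all animals. Without the animal labelled Chr7T male 1 and Chr5 male 2, Chr9 (0.0449, adjusted p = 0.0123) and Chr8 (0.0410, adjusted p = 0.0465) were called higher than B6.

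The promoters of the Cyp2b genes are shown because Cyp2b9 was high in the same animals as Cyp2b13 (Chr7T) and Cyp2b10 (Chr7T and Chr5). Cyp2b9 and Cyp2b13 have the same base at 99.2% of the 250 positions, and capitals mark their longest shared run, 146 bases that reach the start. Cyp2b10 has 26.4% of positions the same as Cyp2b9 without gaps, and its capitals mark the longest run shared with it, 12 bases. None of the 3 holds TATAAA, nor the letters TTCNNNGAA (a STAT core, which reads the same on both strands), found in 7.02% of all promoters and in Cyp2j11, Cyp4b1 and Cyp4f13 here. How far array probes tell Cyp2b9 and Cyp2b13 transcripts apart was not tested.
Cyp2b9 (GRCm38.p6, chr7:26173159-26173408, plus strand): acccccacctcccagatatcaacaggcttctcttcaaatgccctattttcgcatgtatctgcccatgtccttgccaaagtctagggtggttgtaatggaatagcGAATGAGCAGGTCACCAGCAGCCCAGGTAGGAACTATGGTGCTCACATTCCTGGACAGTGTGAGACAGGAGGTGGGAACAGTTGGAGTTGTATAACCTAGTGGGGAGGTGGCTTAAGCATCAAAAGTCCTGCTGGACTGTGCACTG
Cyp2b13 (GRCm38.p6, chr7:26061245-26061494, plus strand): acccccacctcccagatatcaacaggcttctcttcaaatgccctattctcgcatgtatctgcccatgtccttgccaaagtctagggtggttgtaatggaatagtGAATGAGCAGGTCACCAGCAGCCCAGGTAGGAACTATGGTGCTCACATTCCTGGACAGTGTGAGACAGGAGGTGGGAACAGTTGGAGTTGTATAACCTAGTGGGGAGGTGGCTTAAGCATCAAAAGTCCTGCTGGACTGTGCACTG
Cyp2b10 (GRCm38.p6, chr7:25897408-25897657, plus strand): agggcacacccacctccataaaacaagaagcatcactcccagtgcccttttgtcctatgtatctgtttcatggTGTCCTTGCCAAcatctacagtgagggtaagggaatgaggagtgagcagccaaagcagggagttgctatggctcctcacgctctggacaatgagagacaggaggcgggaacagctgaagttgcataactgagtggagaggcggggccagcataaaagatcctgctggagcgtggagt

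Cyp2r1, the vitamin D hydroxylase of the liver, was lower in MSM and in all 3 chromosome 7 strains. Its levels (1444138_at) were 8.11172 and 8.11111 in MSM, 8.11525 and 8.11289 in Chr7, 8.11455 and 8.11498 in Chr7C and 8.11400 (the animal labelled male 1) and 8.11477 in Chr7T, against 8.11831 and 8.11790 in B6 and 8.11551 to 8.11949 in the 50 consomic animals with a B6 chromosome 7. All 8 animals of MSM and these 3 strains lay below the 52 others. The labels do not say whether Chr7C and Chr7T hold MSM sequence at this gene. The MSM difference was -0.00669 ± 0.00069 (-9.54 SDs, adjusted p = 9.4e-09). It was -0.00404 in Chr7 (60.3% of that in MSM, adjusted p = 0.00117), -0.00334 in Chr7C (adjusted p = 0.0143) and -0.00372 in Chr7T (adjusted p = 0.00722). Each of the 3 also differed from MSM (adjusted p of 0.00497, 0.000561 and 0.00197), Chr7T also without the animal labelled male 1 (0.00738). For Chr7 this was lost without Chr7 male 1 (0.174) or MSM male 2 (0.0621). Chr7C and Chr7T did not differ detectably (0.000376 ± 0.00069, adjusted p = 1). The calls in Chr7C and Chr7T were lost without either B6 male (adjusted p of 0.065 to 0.281). That in Chr7T was also lost without the animal labelled Chr7T male 1 (-0.00333, adjusted p = 0.245), that in Chr7C without either Chr7C male (0.223 and 0.109) and after quantile normalization (0.128), and that in Chr7 without Chr7 male 2 (0.122). The bin of chromosome 7 that holds Cyp2r1 had 7 calls in Chr7C and 7 in Chr7T among 137 probe sets, Cyp2r1 itself counted in both.

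The enzymes that degrade retinoic acid gave no call. Cyp26a1 was 0.24 SD higher and Cyp26b1 differed by -1.20 SDs in MSM against B6 (adjusted p of 0.888 and 0.403). Cyp24a1, which degrades vitamin D, and Cyp27b1, which activates it, lay under the filter. In a fit without the filter, Cyp24a1 was higher in MSM on 1418867_at (adjusted p = 0.0182) and not on 1418866_at (adjusted p = 0.136), at levels of 7.25 and 6.94, and the strain means of these probe sets correlated at 0.023.

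Cyp1a2 and Cyp2e1, oxidases of aromatic amines and caffeine and of ethanol and acetaminophen, are both made mainly around the central vein. Neither was called in MSM against B6 (Cyp1a2 2.18 SDs higher, adjusted p = 0.109; Cyp2e1 1.01 SDs higher, adjusted p = 0.493). Their strain means moved together over the 30 strains (Pearson r = 0.784, permutation p = 2e-05, adjusted p = 0.00018 over 9 gene pairs; Spearman rho = 0.641, permutation p = 0.00015). Without Chr9 and MSM, the strains farthest from the Cyp1a2 median, r was 0.602, and over the 28 consomic strains it was 0.728. The strain means share the same arrays for both genes. Chr9 carries Cyp1a2 from MSM but Cyp2e1 from B6, and was lowest in both. Of its males, Chr9 male 1 was at -4.73 SDs and male 2 at -0.85 SD from the B6 mean in Cyp1a2, while MSM males were 2.41 and 1.96 SDs above it. In Cyp2e1, Chr9 male 1 was at -5.64 SDs and male 2 at -0.28 SD. Cyp1a2 was lower in Chr9 than in MSM (-0.0297, adjusted p = 0.000297, and -0.0181 without Chr9 male 1, adjusted p = 0.0476). Chr9 against B6 was not called (-0.0167 ± 0.0059, adjusted p = 0.145). Of 6 pericentral hepatocyte markers 1, Oat, was called lower in MSM, where 9.95% of all tested probe sets were.

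**Figure D4:**
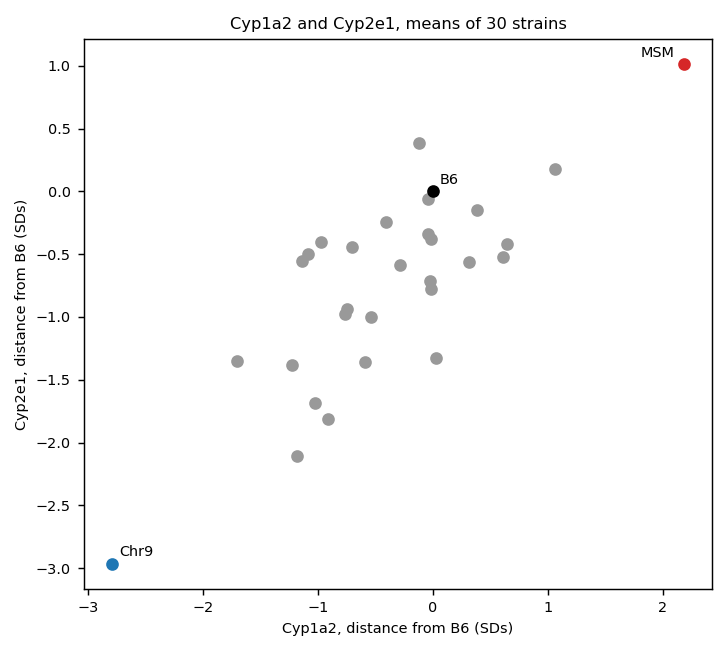
Mean of Cyp1a2 (horizontal) and Cyp2e1 (vertical) in each of the 30 strains, as the distance from B6 in SDs between males of a strain. MSM is highest in both and Chr9 lowest in both (r = 0.784, and 0.602 without these strains).

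Both promoters are shown because the pair had the closest relation of the 9, and both hold TATAAA (in capitals) on the coding strand, beginning 29 bases before the start in Cyp1a2 and 31 in Cyp2e1.
Cyp1a2 (GRCm38.p6, chr9:57683656-57683905, minus strand): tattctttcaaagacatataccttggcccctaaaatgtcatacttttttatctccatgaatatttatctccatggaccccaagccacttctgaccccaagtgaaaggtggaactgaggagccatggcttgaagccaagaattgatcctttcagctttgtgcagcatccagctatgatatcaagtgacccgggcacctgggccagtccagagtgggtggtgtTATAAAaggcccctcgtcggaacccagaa
Cyp2e1 (GRCm38.p6, chr7:140763569-140763818, plus strand): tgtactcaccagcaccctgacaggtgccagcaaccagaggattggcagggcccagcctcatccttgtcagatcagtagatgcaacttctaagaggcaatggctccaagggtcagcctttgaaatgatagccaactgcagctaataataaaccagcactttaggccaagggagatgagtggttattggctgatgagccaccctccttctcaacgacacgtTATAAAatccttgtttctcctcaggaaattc

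Of the other 8 pairs, Cyp1a1 with Cyp1a2 (r = 0.427, adjusted p = 0.0414; rho = 0.501, adjusted p = 0.0243) had an adjusted p of 0.0607 over the consomic strains alone and 0.0554 with Chr7T from its second male alone. Cyp1a1 lay under the level filter, and its variation over the strains was not called in the fit without the filter (moderated F test, adjusted p = 0.378). For Cyp2b9 with Cyp2b13, r was 0.747 and rho -0.0825. These values are a description and no test, because Cyp2b9 passed the filter only through its highest animals. The r rested on Chr7T: without Chr7T and Chr5 it was -0.035. Cyp3a11 with Cyp3a25 (r = -0.496, adjusted p = 0.0414; rho = 0.163, adjusted p = 0.698) was -0.172 without MSM and Chr19, and had an adjusted p of 0.0554 with Chr7T from its second male alone. In Cyp2b10 with Cyp3a11, targets of CAR and PXR, r was 0.0375 (adjusted p = 0.845). Cyp2f2 with Cyp17a1, Cyp2j5 with Cyp4b1, Cyp26a1 with Cyp26b1 and Cyp4f14 with Cyp4f15 had adjusted p-values of 0.285 to 0.457.

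Among family 4 genes, whose products mostly hydroxylate the end of fatty acid chains, 7 probe sets of 6 genes were tested. Cyp4b1, which also activates furan toxins of plants, was the 1 call in a consomic strain of another chromosome. Among 899 pairs of a P450 probe set and such a strain this was 1 call (0.111%), near the 0.108% of all pairs that were called. The mt males had 8.80189 and 8.80219, the lowest of the 60, against 8.80334 and 8.80360 in B6 (-0.00142 ± 0.00026, adjusted p = 0.00956). The next lowest were Chr8 male 1 (8.80245), ChrY male 2 (8.80246) and Chr6T male 2 (8.80260). The call was lost without either B6 male and without either mt male (adjusted p of 0.0644 to 0.162), and after quantile normalization (adjusted p = 0.627). Cyp4b1 differed over the 30 strains (F = 8.02, adjusted p = 4.08e-06), and in its own Chr4 strain it was 1.50 and 1.04 SDs above the B6 mean (adjusted p = 0.685).

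**Figure D5:**
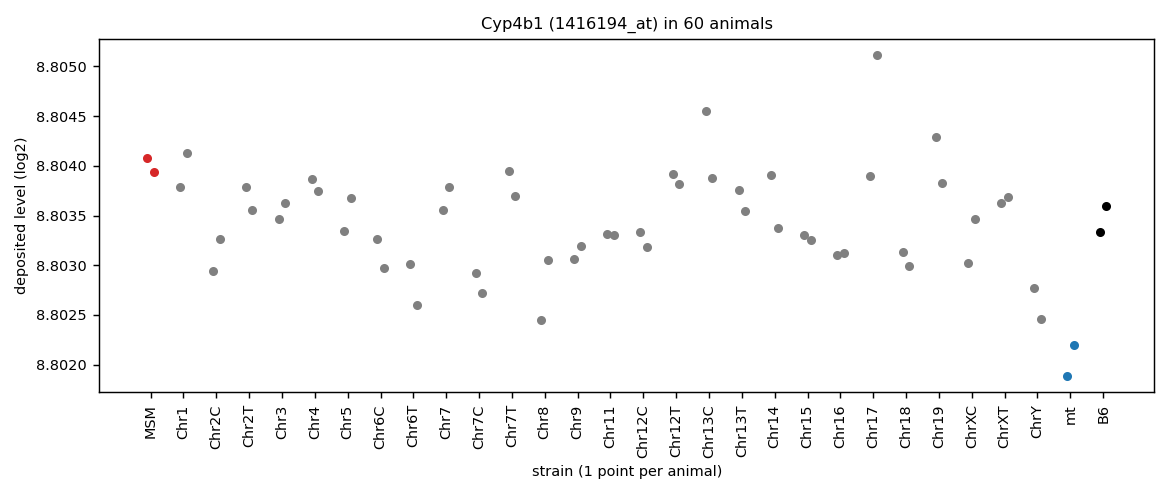
Deposited log2 level of Cyp4b1 in each of the 60 animals, by strain, with MSM in red, the mitochondrial strain in blue and B6 in black. The mt males are the lowest (8.80189 and 8.80219), and the highest animal is Chr17 male 2.

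Cyp4f14, which inactivates leukotrienes, was lower in its own Chr17 strain than in MSM. It had 10.88360 and 10.88344 in Chr17 males, 10.88759 and 10.88754 in MSM males and 10.88693 and 10.88734 in B6 males (1419559_at). Chr17 differed from MSM by -0.00404 ± 0.0009 (adjusted p = 0.00116) and from B6 by -0.00361 ± 0.0009 (adjusted p = 0.095). The lowest animal of all was Chr4 male 2 (10.88318). The gene varied over the strains (F = 3.62, adjusted p = 0.0048). Cyp4f13, Cyp4f15 and Cyp4f16 were not called in MSM (adjusted p of 0.0853 to 0.248). Cyp4v3, a fatty acid hydroxylase whose human counterpart CYP4V2 is mutated in a corneal and retinal dystrophy, was called higher in MSM on 1417070_at. The MSM males had 10.95113 and 10.95133, above all others, against 10.93924 and 10.94147 in B6 (adjusted p = 0.0374). The second probe set, 1417071_s_at, had an adjusted p of 0.0539, and of 0.0347 without the animal labelled Chr7T male 1. The call on 1417070_at was lost without any 1 of the 4 animals compared (adjusted p of 0.0869 to 0.189) and with males centred on the median probe set (adjusted p = 0.094). Chr8, which carries the gene from MSM, had 10.94174 and 10.93657 and differed from MSM (-0.0121, adjusted p = 0.0211), which was lost without Chr8 male 2 or either MSM male (adjusted p of 0.18, 0.0859 and 0.0967).

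The steroid enzymes Cyp17a1 and Cyp21a1 were not called in MSM. Cyp17a1 did not vary detectably over the strains (F = 1, adjusted p = 0.649). Cyp21a1 on 1422333_at was lowest in the Chr17 males, -3.30 and -3.08 SDs from the B6 mean, while MSM males were 2.25 and 0.92 SDs above it. Chr17 differed from MSM (-6.9e-05, adjusted p = 0.000756) but not detectably from B6 (adjusted p = 0.426), and the second probe set gave an adjusted p of 0.0774 for Chr17 against MSM. Of 4 markers of steroid-forming tissue, 2 passed the level filter and none was called in MSM.

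Cyp39a1, an oxysterol hydroxylase, lay under the filter, and its lowest animals were those with an MSM chromosome 17. It had 6.984 and 6.984 in MSM and 6.983 and 6.975 in Chr17, the 4 lowest of 60, against 7.067 and 7.094 in B6 and 7.007 to 7.163 in the 54 other consomic animals. In the fit without the filter the MSM difference was -0.0966 ± 0.0266 (adjusted p = 0.0102), where 6.7% of all 34945 probe sets were called lower, and the Chr17 difference was -0.1015 (adjusted p = 0.17).

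Over the 30 strains, the moderated F test called 13 of 34 P450 probe sets (background 16.2%), of 11 genes: Cyp3a25, Cyp2r1, Cyp2j6, Cyp2a12, Cyp4b1, Cyp2j5, Cyp4f14, Cyp3a13, Cyp2f2, Cyp3a11 and Cyp2b10. Without the animal labelled Chr7T male 1 it called 12, Cyp3a11 being the one lost. When the strain with all or part of the gene's own chromosome was set against MSM, 11 of 34 probe sets were called (background 20.3%). Among them was Cyp2b9, which passed the filter only through its highest animals.

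Genes that serve P450 enzymes were described from a list of 41 regulators, electron donors and heme genes, of which 36 were measured and 35 tested. In MSM, 4 of 35 were called higher (background 13.4%) and 1 lower (background 9.95%), and in their own chromosome's strain Hnf4a (Chr2T) and Hlf (Chr11) were called lower (background 4.37%). Nr1i2, the PXR receptor that drives Cyp3a11, was 8.66881 in MSM and 8.65646 in B6 (0.0123 ± 0.0012, adjusted p = 1.58e-09), and in its own Chr16 strain the difference was 0.00445 (adjusted p = 0.193). Fdx1, the electron donor of mitochondrial P450 enzymes, was higher (0.00179 ± 0.00031, adjusted p = 6.67e-05). Ahr (0.0174, adjusted p = 0.0246) and Cebpb (0.0137, adjusted p = 0.0472) were higher and the growth hormone receptor Ghr lower (-0.00165, adjusted p = 0.00159). The call of Cebpb was lost without any 1 of the 4 animals compared and without the animal labelled Chr7T male 1 (adjusted p = 0.0508), and that of Ahr without B6 male 2 or either MSM male. The Ghr difference was 0 after quantile normalization, again a tie of ranks, and its adjusted p was 0.058 in the 2 strains alone. Nr1i3 (CAR, adjusted p = 0.668), Stat5b (adjusted p = 0.978), Hnf4a (adjusted p = 0.158) and the heme enzyme Alas1 (adjusted p = 0.194) were not called in MSM.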

How the data were processed

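Liver RNA of 60 animals labelled as males of 30 strains was measured on 120 arrays. The values deposited by the authors are log2 levels per probe set, already normalized between arrays, as read from the values (array medians of 7.4158 to 7.4168). Summary method and genome build were not found in the labels or the table, and depth does not apply to arrays. The number of animals limits the precision. Males come from the animal number in the sample titles, which the labels do not spell out, and litters are not given. Each male's 2 arrays were averaged. Symbols come from the platform annotation (34945 of 45037 probe sets with 1 symbol, 932 with several, 9160 with none), matched to RefSeq's GRCm38.p6 gene table for 34741 of the 34945, which also gave chromosomes and gene order.

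Strain means were fitted together over 60 males with limma 3.58.1 (R 4.3.3) on probe sets above the median in at least 2 males, with Benjamini-Hochberg adjustment over all probe sets within a comparison. The step was tested on simulated data. Of 12 listed gene pairs, 9 had a single-gene probe set each and were tested with 100000 permutations (SciPy), two-sided. Members and lists were chosen with earlier results of these data known. Named were all genes called in MSM, those called in their own chromosome's strain or elsewhere, those with the largest F, 7 well-known genes and called partner genes; the animals and genes named for extreme values, and Xist, Eif2s3y and Kdm5d, were chosen after their values were seen. Alternatives were quantile normalization, level filters, arrays with the male as a block, 1 probe set per gene, another reference, strains fitted in pairs, trend and robust moderation, and leaving out animals. Promoters are RefSeq's (GRCm38.p6).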

Additional observations from a re-analysis of the deposited data

Results flagged for a closer look

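In 12 cases, Cyp2b9 in Chr7T among them, a strain with all or part of a P450 gene's own chromosome from MSM differed from MSM. By probe set 11 of 34 were called, where 20.3% of all probe sets were. Apart from Cyp2b9, which is described only, tested was the difference itself (limma, adjusted p over all probe sets, 2 males per strain). The labels do not say whether a C or T strain holds MSM sequence at a given gene. The chromosome 7 bin of Cyp2a12 and Cyp2f2 had 7 calls in Chr7C, Cyp2a12 itself counted, and 0 in Chr7T. Chr7T was below MSM in Cyp2a12 (-0.00152, adjusted p = 1.96e-05) and in Cyp2f2 (-0.000284, adjusted p = 0.00122). Without the animal labelled Chr7T male 1 these were -0.00179 (adjusted p = 4.55e-05) and -0.000211 (adjusted p = 0.0599). In Cyp2b9, Chr7T was above MSM by 0.516, and by -0.00756 without that animal. Cyp2b9 passed the level filter only through that animal and Chr5 male 2, so this is a description and not a test. In Cyp2r1, Chr7 was above MSM by 0.00265, Chr7C by 0.00335 and Chr7T by 0.00297 (0.00336 without the animal labelled Chr7T male 1, adjusted p = 0.00738). Leaving out Chr7 male 1 brought the Chr7 value to 0.00147 (adjusted p = 0.174), and leaving out MSM male 2 to 0.00235 (adjusted p = 0.0621). Chr7 was below MSM in Cyp2e1 (-9.02e-05, adjusted p = 0.0424), with an adjusted p of 0.342 without Chr7 male 2 and of 0.119 and 0.158 without either MSM male.

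Chr5 was above MSM in Cyp3a13 (0.0276), but by 0.00766 without Chr5 male 2 (adjusted p = 0.193). Chr9 was below MSM in Cyp1a2 (-0.0297), and by -0.0181 without Chr9 male 1 (adjusted p = 0.0476). Chr17 was below MSM in Cyp4f14 (-0.00404) and in Cyp21a1 (-6.9e-05), and both stayed called without any 1 animal (adjusted p of 0.00824 to 0.0162 in Cyp4f14 and 0.00288 to 0.0231 in Cyp21a1). Chr8 was below MSM in Cyp4v3 on both probe sets (-0.0121 and -0.0057), with an adjusted p of 0.18 and 0.126 without Chr8 male 2. Leaving out MSM male 1 gave 0.0859 and 0.0551, and leaving out the other MSM male gave 0.0967 and 0.0551.

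Outside the P450 genes, Xist stood at 7.88 in the animal labelled Chr7T male 1 and at no more than 6.82 in the 59 others.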

How the results depend on the processing

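The count of P450 probe sets lower in MSM (7) stayed within 1.5 times its value under every alternative run. The count higher in MSM (3) was 17 after quantile normalization, which gave 81.8% of all probe sets as higher in MSM, 8 with 120 arrays and the male as a random block, 10 against the other strains, 6 in the 2 strains alone, 1 to 2 without 1 animal of B6 or MSM, 5 without the animal labelled Chr7T male 1, and 5 without it and Chr5 male 2. Own-chromosome calls were 0 higher (main 1) by quantile normalization and in the 2 strains alone, 3 higher and 9 lower (main 5) with 120 arrays, 2 higher and 9 lower against other strains, and 0 lower in the 2 strains alone, which also left 0 of the 6 calls shared with MSM. Without 1 animal they were 1 to 2 higher and 5 to 7 lower. Calls on another chromosome (main 1) were 0 by quantile normalization, 18 with 120 arrays, 5 against other strains, 0 to 12 without 1 animal and 3 without both animals. The F test called 22 by quantile normalization and 27 with 120 arrays, against 13, 9 to 11 without 1 animal of B6 or MSM, and 12 without the animal labelled Chr7T male 1. It was not run for 2 strains alone, for other strains as reference or for leaving out each consomic animal in turn. Of the 10 MSM calls, 7 were kept by quantile normalization (not Cyp2a12, Cyp2f2 and the second Cyp2j5 probe set) and 8 to 9 without 1 animal of B6 or MSM. After each male was centred on the median probe set, 1792 of all probe sets were higher and 2607 lower in MSM, against 2609 and 1933, and 9 of the 10 calls were kept. The correlation of Cyp2b9 with Cyp2b13 was -0.0221 with Chr7T from its second male alone. The cause of these shifts was not tested. No paired analysis was possible because the animal numbers do not tie a male of a strain to a male of another. Settings added after seeing the data were the centring, both omissions of named animals and the single Chr7T male. With 2 males per strain and values compressed per probe set, the number of animals limits the precision.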
